A study of Homo sapiens with 18 samples.

Results

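The genes described here are 53 of the 26485 gene symbols counted in the RNAseq, and they were selected on their measured values as genes that were lower with siLonp1 than with scramble siRNA in all 3 conditions of the study. A gene was taken when its mean level was at least 3 CPM (its count divided by the sum of the library's counts, times 1e+06) in each of the 3 scramble groups, and when its mean CPM with siLonp1 was at most 0.5 of that with scramble siRNA in every condition. The minimum level was reached by 10856 genes and both limits by 58, of which LONP1, CDH17, DDC, AGR2 and A1CF were left out by name. ARSE and TGFBR3 were also left out by name, but they did not meet the limits. Because the siLonp1 to scramble ratios chose the 53 members, these ratios are a description and were not tested. The effect of heat averaged over both siRNA arms was not a limit of the choice, and it was tested. The minimum level in the heated scramble groups does bear on it, since a gene that heat lowered below this level could not be a member.

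The cells were SW620, a human colon carcinoma line, in which Lonp1 was silenced by siRNA (siLonp1) or which received a scramble siRNA, and libraries made with a stranded mRNA kit (methods) were sequenced from 6 groups of 3. Each siRNA was studied in cells held at 37 °C (Ctrl), in cells placed at 42 °C for 1 h (HS) and in cells placed at 42 °C for 1 h and returned to 37 °C for 1 h (HS + REC). Library totals ranged from 30815860 to 47279297 counts, with the lowest total in an HS scramble library and the highest in an HS + REC scramble library. The 3 libraries of a group were independent biological replicates according to the methods, so the p-values measure the spread between such replicates of a single cell line. Silencing was by transfection, and neither which siRNA against Lonp1 was used for RNAseq nor the time from transfection to RNA extraction is stated in the sources used here; effects of the siRNA sequence itself and of the loss of Lonp1 cannot be told apart.

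Lonp1 is an ATP-dependent protease of the mitochondrial matrix that degrades misfolded and oxidised proteins and acts as a chaperone. SW620 cells come from a metastasis of a colon carcinoma, and lines of this origin keep part of the programme of intestinal epithelium, in which the transcription factors CDX2 and HNF4A drive genes of the brush border, of transport and of cell adhesion. Heat shock stops the expression of many genes for a time while chaperone genes are induced.

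LONP1 itself was read first, as the check of the silencing. In Ctrl, its level was 234, 238 and 226 CPM with scramble siRNA and 19.2, 22.5 and 19.6 CPM with siLonp1. The HS libraries of LONP1 were at 226, 237 and 202 CPM with scramble siRNA and 11.4, 11.2 and 11.5 CPM with siLonp1, and in HS + REC it was 225, 196 and 231 CPM with scramble siRNA and 25.3, 24.3 and 27.6 CPM with siLonp1. Every siLonp1 library lay far below every scramble library of its condition, and the ratios of the means were 0.0879, 0.0512 and 0.119 for Ctrl, HS and HS + REC.

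Across the 53 members the ratio of siLonp1 to scramble ranged from 0.171 to 0.487 in Ctrl (median 0.412), from 0.171 to 0.496 in HS (median 0.391) and from 0.158 to 0.498 in HS + REC (median 0.40). Over the 10856 genes at the minimum level the medians were 0.958, 0.933 and 0.945. In all 53 members no siLonp1 library reached any scramble library of the same condition, in each of the 3 conditions, a count that the choice of members largely fixes and beside which 24.2% of the 12832 genes tested were lower with no overlap in the same sense. The members together held 894 to 962 CPM in the Ctrl scramble libraries and 356 to 375 CPM in the Ctrl siLonp1 libraries. In HS these sums were 896 to 930 CPM and 326 to 350 CPM, and in HS + REC 824 to 867 CPM and 305 to 325 CPM. The gap between the siRNA arms in these sums follows from the choice of the members.

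Exons of 18 members overlap exons of another gene on the opposite strand, COL4A2, HMGA2, PPFIBP2, TERT and LYZ among them, and those of 7 overlap a gene on the same strand. Whether reads were counted by strand is not stated in the sources used here, so reads of such partners cannot be told apart from those of the member.

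**Figure D1:**
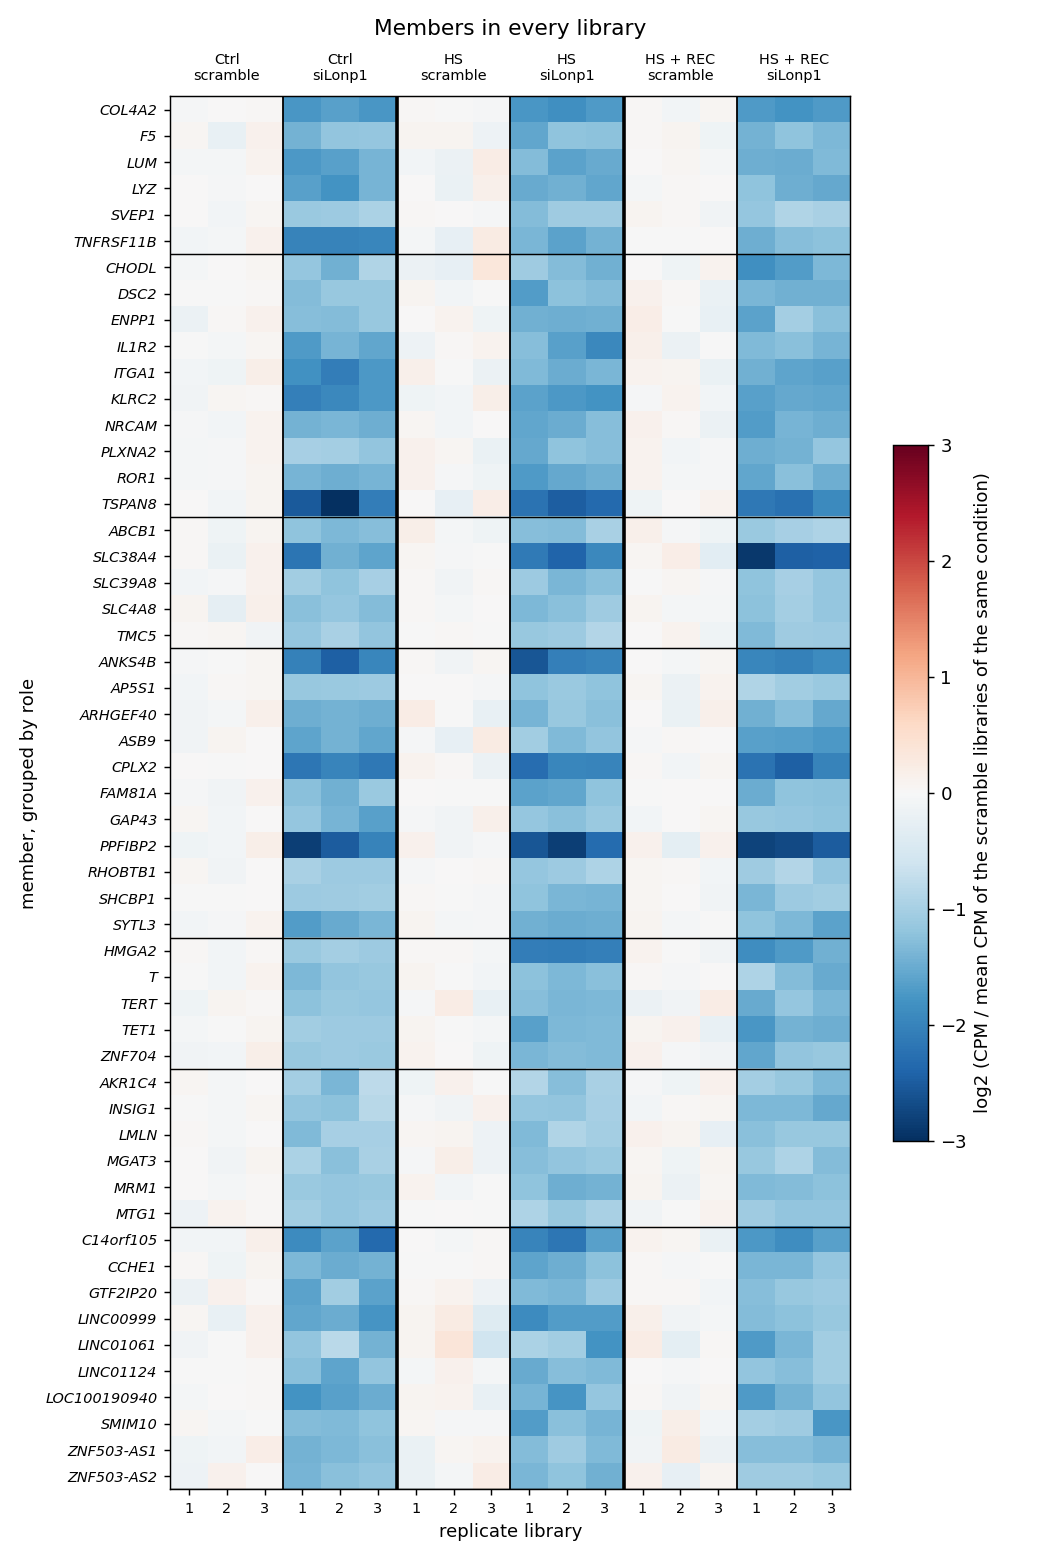
Heat map of the 53 members (rows, grouped by role) in the 18 libraries (columns). Colour gives log2 of the CPM over the mean CPM of the 3 scramble libraries of the same condition, and each of the 9 siLonp1 libraries is below that mean in all 53 rows because the members were chosen for it.

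The ratios of a member in the 3 conditions were mostly close to each other. The largest and the smallest ratio of a member differed by 1.15-fold in the median, and by more than 1.5-fold in 3 members: HMGA2 (1.99-fold), SLC38A4 (1.82-fold) and TNFRSF11B (1.58-fold). HMGA2 had its highest ratio in Ctrl (0.475, against 0.238 in HS and 0.317 after recovery), whereas TNFRSF11B had its lowest there (0.253, against 0.362 and 0.40). These differences between conditions are built from the values that chose the members and were not tested. RHOBTB1 was the member with the closest ratios, at 0.482, 0.482 and 0.487. Just inside the limit lay MTG1, ABCB1 and SVEP1, whose largest ratios were 0.496, 0.496 and 0.498. Just outside lay PLCB1, ARHGAP25 and CASP8, at 0.504, 0.504 and 0.507.

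**Figure D2:**
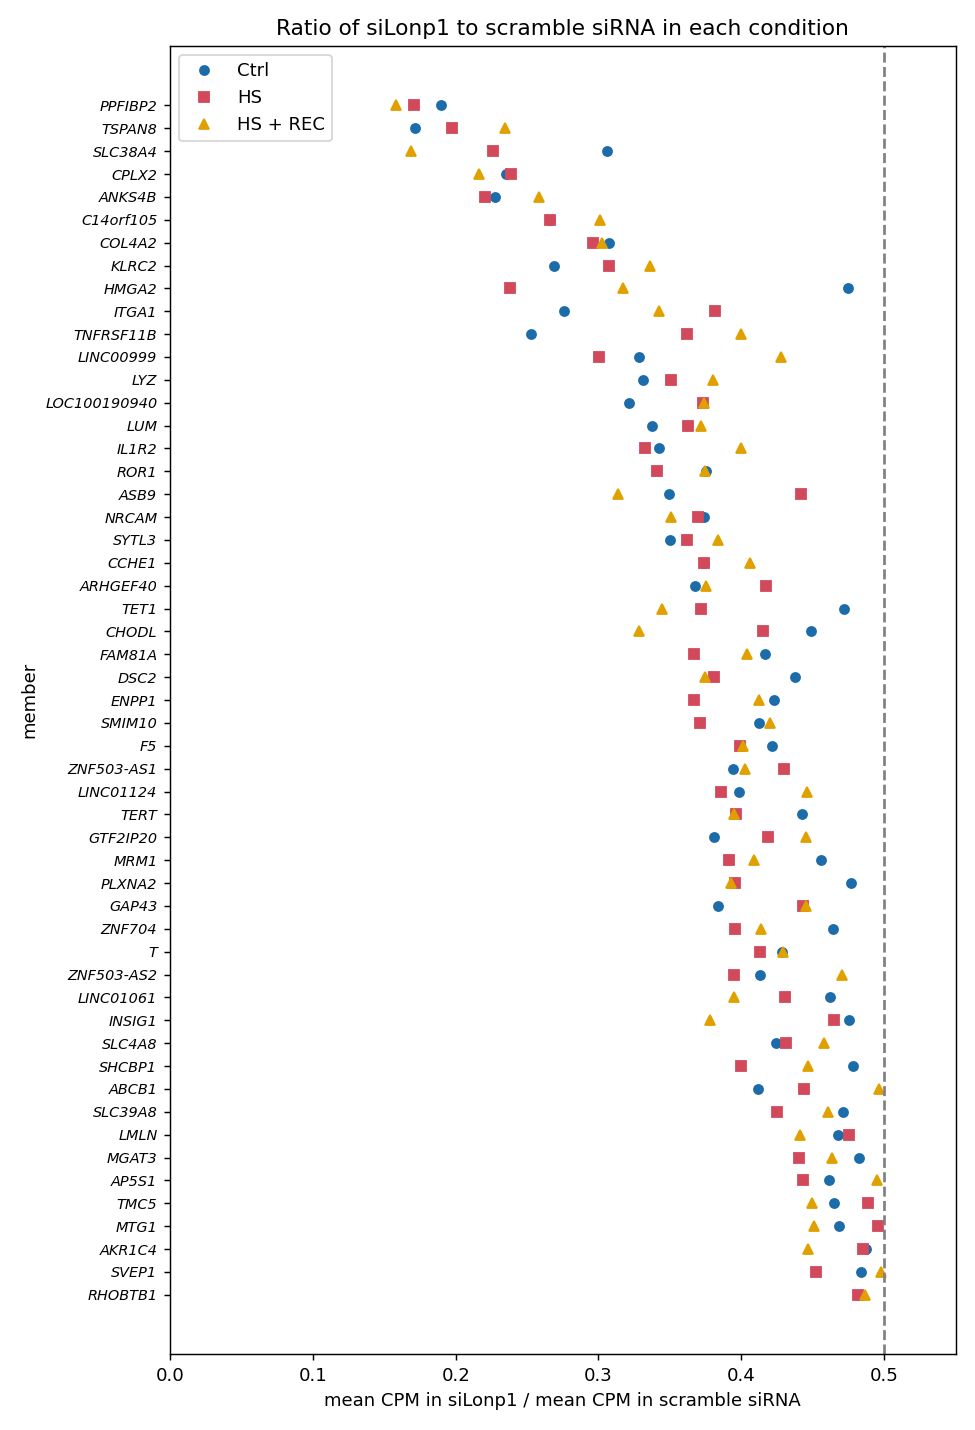
Ratio of the mean CPM in siLonp1 to the mean CPM in scramble siRNA (horizontal axis) for each of the 53 members (rows, from the lowest to the highest mean ratio) in Ctrl, HS and HS + REC; the dashed line is the limit of 0.5. HMGA2 stands out by a ratio near the limit in Ctrl and lower ratios in HS and HS + REC.

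TSPAN8 and ANKS4B, genes of the apical surface of the gut, were among the members with the lowest ratios, as were PPFIBP2, SLC38A4 and CPLX2, which have other roles. Over the brush border and enterocyte genes tested, these members included, the median siLonp1 log2 fold changes were -0.04, 0.06 and -0.01 in Ctrl, HS and HS + REC. TSPAN8, a tetraspanin of gastrointestinal epithelium, was at 12.7, 11.9 and 13.5 CPM with scramble siRNA and 2.20, 1.31 and 3.01 CPM with siLonp1 in Ctrl. TSPAN8 was at 11.5, 9.77 and 13.3 CPM with scramble siRNA and 2.50, 2.06 and 2.27 CPM with siLonp1 in HS, and in HS + REC at 11, 12.3 and 13 CPM with scramble siRNA and 2.73, 2.56 and 3.21 CPM with siLonp1. The lowest scramble library of TSPAN8 was thus several-fold above its highest siLonp1 library, and its ratios were 0.171, 0.198 and 0.235. ANKS4B, a scaffold of the adhesion complex that links the tips of microvilli, was at 9.78, 9.91 and 10.4 CPM with scramble siRNA and 2.45, 1.83 and 2.57 CPM with siLonp1 in Ctrl. In HS + REC ANKS4B was at 12.7, 12.1 and 13.2 CPM with scramble siRNA and 3.26, 3.12 and 3.43 CPM with siLonp1. ANKS4B was higher in HS + REC than in Ctrl over both arms (log2 fold change 0.51, SE 0.08, adjusted p = 1.6e-05, from edgeR's quasi-likelihood fit, adjusted after Benjamini and Hochberg across the genes tested, as is every adjusted p given here), and its 3 HS + REC libraries were above the 3 Ctrl libraries in each arm. The partners of ANKS4B in that complex differed from each other. USH1C had siLonp1 log2 fold changes of -0.06, 0.06 and -0.08 in Ctrl, HS and HS + REC and was not called in any, and CDHR2 was called higher in each (0.56, 0.41 and 0.54). MYO7B was called lower in HS + REC only (log2 fold change -0.54, adjusted p = 0.0128). CDHR5, which did not pass the filter, had means of 0.165 ± 0.0663 CPM (SD, n = 3) in Ctrl scramble and 0.0419 ± 0.0140 CPM in Ctrl siLonp1.

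Promoter sequences of these genes were read to see which letters the members share near their starts. Of the 53 members, 41 had an entry in the RefSeq table of promoters (GRCh38.p14), which spans 300 bases, 250 before the start and 50 after it. The letters TTTATG, as bound by CDX factors, were found on either strand in 2 of the 41 (4.88%), in 5.12% of the 10180 promoters of genes tested and in 11% of all 27305 promoters, and TGTTTAC, as bound by FOXA factors, in 2.44%, 2.20% and 3.41%. CAAAGTCCA, the site of HNF4, was in 0 of the 41 and in 0.305% of the genes tested. The counts of members are small, and a match describes the letters in this window and not a bound site. The promoter of TSPAN8 is printed because its ratios were among the lowest, it holds both the CDX and the FOXA letters, and CDX2 is examined further on. Capitals mark these letters or their reverse complements, and the sequence is read from 5′ to 3′ on the strand of the gene, at chr12:71157950-71158249 on the minus strand.
TSPAN8: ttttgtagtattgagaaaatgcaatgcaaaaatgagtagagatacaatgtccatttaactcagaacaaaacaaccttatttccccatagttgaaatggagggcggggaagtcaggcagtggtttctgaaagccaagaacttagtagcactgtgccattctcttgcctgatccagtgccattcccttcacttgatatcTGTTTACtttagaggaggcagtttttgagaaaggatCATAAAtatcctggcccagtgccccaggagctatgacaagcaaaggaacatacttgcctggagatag
In TSPAN8 the FOXA letters begin 53 bases before the start and the CDX letters 17 bases before it. The G and C content of this promoter was 42.3%, and the median was 60.7% over the 41 members and 65.3% over the genes tested. Other letters were searched in the same way, and not all of them are reported here. The letters printed therefore do not show whether any searched letters stand out among the members. AGATAA, as bound by GATA factors, was in 4.88% of members, 4.63% of genes tested and 10.5% of all promoters. The TATA box, TATAAA, was in 9.76%, 5.41% and 12%. The GC box, GGGCGG, was in 58.5%, 71.1% and 44.6%. The letters CCAAT were in 31.7%, 36.7% and 35.7%. TGANTCA (AP-1) was in 2.44%, 4.38% and 7.76%. The core of the heat shock element, GAANNTTC, was in none of the 41 members and in 4.45% of the genes tested. TGACGTCA (cAMP response element) and TTGCATCA (C/EBP-ATF) were in none of the members either, and in 3.31% and 0.462% of the genes tested.

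Among the 6 members that encode secreted or matrix proteins, COL4A2 was the most highly counted. COL4A2, a chain of the type IV collagen of basement membranes, was at 47.7, 48.8 and 49.7 CPM with scramble siRNA and 14.6, 15.9 and 14.5 CPM with siLonp1 in Ctrl. In HS COL4A2 was at 49.5, 47.8 and 46.8 CPM with scramble siRNA and 14.3, 13.5 and 14.9 CPM with siLonp1, and in HS + REC at 47.4, 43.7 and 48.5 CPM with scramble siRNA and 14.4, 13.4 and 14.4 CPM with siLonp1. The scramble libraries of the 3 conditions overlapped, the siLonp1 libraries of HS + REC lay just below those of Ctrl, and COL4A2 was called in neither heat comparison (log2 fold change -0.01 in HS and 0.00 in HS + REC, each with SE 0.05). COL4A1, the chain that assembles with it and that is encoded next to it, had only 116 counts over all 18 libraries and was below the filter. LUM, a proteoglycan that binds collagen fibrils, was at 34.4, 34.2 and 38.2 CPM with scramble siRNA and 10.9, 11.6 and 13.6 CPM with siLonp1 in Ctrl. Heat lowered LUM in HS (log2 fold change -0.33, SE 0.07, adjusted p = 0.000379) but no call was made in HS + REC, where LUM was at 30.8, 32.1 and 29.5 CPM with scramble siRNA and 11.1, 11 and 12.2 CPM with siLonp1. The siLonp1 libraries of LUM were below its scramble libraries throughout.

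LYZ, the bacteriolytic enzyme lysozyme, was at 9.30, 9.04 and 9.36 CPM with scramble siRNA and 3.0, 2.65 and 3.53 CPM with siLonp1 in Ctrl. LYZ was called in neither heat comparison, and its ratios were 0.332, 0.351 and 0.380. LUM and LYZ are also in the marker lists of fibroblasts and of leukocytes. As a mean over the 18 libraries, 3 of 6 fibroblast markers reached 1 CPM, LUM being the most abundant, with summed levels of 23.5 to 62.5 CPM in single libraries and COL3A1 at 0 counts in all. Without LUM these sums ran from 9.49 to 35.3 CPM, mostly COL1A1, which had means of 9.70, 17.6 and 30 CPM with scramble siRNA and 9.71, 15.9 and 31.6 CPM with siLonp1 in Ctrl, HS and HS + REC. PDGFRB had means of 1.23, 1.01 and 1.12 CPM with scramble siRNA and 2.63, 1.95 and 2.33 CPM with siLonp1, opposite in direction to LUM. Of 5 leukocyte markers 2 reached 1 CPM (CD68, the most abundant, and LYZ), with sums of 16.0 to 21.8 CPM, and PTPRC and CD3E had 7 and 4 counts in total. CD68 had means of 11.8, 11.8 and 11.3 CPM with scramble siRNA and 14.3, 15.9 and 14.6 CPM with siLonp1, opposite in direction to LYZ. Of 4 endothelial markers none reached 1 CPM by the same mean (sums of 0.653 to 1.52 CPM, most from VWF, KDR at 0), nor did any of 4 hepatocyte markers (sums of 0.173 to 0.804 CPM, most from TF, CYP3A4 at 0). All 7 markers of colon carcinoma epithelium exceeded 1 CPM, KRT8 being the most abundant, and summed to 8324 to 11688 CPM. Of these lists, COL3A1, KDR and CYP3A4 were at 0 in all libraries, and the part of other cell types in the values of LUM and LYZ was not tested. In bulk libraries, fewer cells of a type and less RNA per cell cannot be told apart.

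F5, coagulation factor V, is made mainly by liver and was the member of the list of plasma protein genes. It was at 31.6, 26.1 and 33.5 CPM with scramble siRNA and 11.4, 13.3 and 13.7 CPM with siLonp1 in Ctrl, with ratios of 0.421, 0.399 and 0.401, and was not called by heat in HS or HS + REC. TNFRSF11B, a soluble decoy receptor for the ligand of RANK, was at 19.4, 19.6 and 22.6 CPM with scramble siRNA and 5.10, 5.15 and 5.30 CPM with siLonp1 in Ctrl and at 21.9, 21.7 and 22.1 CPM with scramble siRNA and 7.91, 9.04 and 9.35 CPM with siLonp1 in HS + REC. As a mean over both arms TNFRSF11B was higher in HS (log2 fold change 0.35, adjusted p = 0.00038) and in HS + REC (log2 fold change 0.51, adjusted p = 3.15e-06). By arm, its log2 fold change in HS was 0.08 (SE 0.10) with scramble siRNA and 0.63 (SE 0.12) with siLonp1, and in HS + REC it was 0.18 (SE 0.10) with scramble siRNA and 0.84 (SE 0.11) with siLonp1. Such a difference between the arms, here and for every member given by arm below, is the difference in ratio between conditions. It is built from the values that chose the members and was not tested. SVEP1, a large secreted protein with pentraxin and EGF-like domains, had ratios of 0.484, 0.453 and 0.498, and its call in HS (log2 fold change -0.17, SE 0.06, adjusted p = 0.0282) was lost without Ctrl scramble replicate 1 or 3, without replicate 3 of Ctrl siLonp1 or of HS scramble, or without replicate 1 of HS siLonp1 (adjusted p up to 0.0911).

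The 10 members that encode adhesion molecules and receptors had mean ratios (geometric, over the 3 conditions) from 0.200 to 0.420. NRCAM, an immunoglobulin-type adhesion molecule of neurons, had the highest CPM among them, at 32.0, 31.1 and 35.2 CPM with scramble siRNA and 12.2, 12.6 and 11.9 CPM with siLonp1 in Ctrl and at 30.5, 28.6 and 25 CPM with scramble siRNA and 8.75, 10.7 and 10.1 CPM with siLonp1 in HS + REC. Over both arms NRCAM was higher in HS (log2 fold change 0.17, SE 0.06, adjusted p = 0.0258) and lower in HS + REC (log2 fold change -0.19, SE 0.06, adjusted p = 0.0113), and the first of these calls was lost with scaling by library size only (adjusted p = 0.0851) and without Ctrl scramble replicate 1 or 2, without replicate 3 of Ctrl siLonp1 or of HS siLonp1, or without replicate 1 of HS scramble (adjusted p up to 0.106). ITGA1, the alpha subunit of a collagen receptor, was at 3.83, 3.73 and 4.62 CPM with scramble siRNA and 1.16, 0.966 and 1.24 CPM with siLonp1 in Ctrl and had ratios of 0.276, 0.381 and 0.342. As a mean over both arms it was higher in HS + REC (log2 fold change 0.57, SE 0.10, adjusted p = 4.56e-05). By arm, the log2 fold change of ITGA1 in HS was 0.03 (SE 0.12) with scramble siRNA and 0.51 (SE 0.17) with siLonp1. In HS + REC it was 0.41 (SE 0.12) and 0.72 (SE 0.17). The call of ITGA1 in HS over both arms (adjusted p = 0.0365) was lost with DESeq2 (adjusted p = 0.0561) and with scaling by library size only (adjusted p = 0.0670). This call was also lost without Ctrl scramble replicate 1 or 2, without replicate 2 of Ctrl siLonp1, replicate 1 of HS scramble or replicate 1 or 3 of HS siLonp1 (adjusted p up to 0.110). The exons of ITGA1 overlap PELO on the same strand, so its counts are uncertain. DSC2, a cadherin of desmosomes, was at 6.41, 6.40 and 6.57 CPM with scramble siRNA and 2.63, 2.92 and 2.94 CPM with siLonp1 in Ctrl and was not called by heat.

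ROR1, a receptor-like kinase that binds WNT5A, was at 21.0, 21.3 and 22.9 CPM with scramble siRNA and 8.31, 7.85 and 8.34 CPM with siLonp1 in Ctrl. The HS libraries of ROR1 were at 32.7, 29.2 and 27.2 CPM with scramble siRNA and 9.15, 10.3 and 10.9 CPM with siLonp1, and those of HS + REC at 32.0, 28.7 and 28.9 CPM with scramble siRNA and 10.2, 12.6 and 10.7 CPM with siLonp1. The heated libraries of ROR1 were above the Ctrl libraries of the same arm in every case, and heat raised it by 0.42 in HS (adjusted p = 5.22e-06) and by 0.54 in HS + REC (adjusted p = 8.13e-08). PLXNA2, a receptor for semaphorins, had ratios of 0.477, 0.396 and 0.393 and rose in HS + REC by 0.33 (adjusted p = 0.000412; log2 fold change 0.47 with scramble siRNA and 0.19 with siLonp1). IL1R2, a decoy receptor for interleukin-1, CHODL, a membrane lectin, and ENPP1, an enzyme at the cell surface that makes pyrophosphate, had mean ratios of 0.357, 0.394 and 0.40. KLRC2, a receptor known from natural killer cells, was at 12.9, 14.6 and 14.1 CPM with scramble siRNA and 3.36, 3.62 and 4.20 CPM with siLonp1 in Ctrl. Its paralog KLRC3, which lies next to it, was called lower by siLonp1 in all 3 conditions, with means of 2.28 ± 0.151 and 0.959 ± 0.131 CPM (SD, n = 3) in Ctrl scramble and Ctrl siLonp1. The sources do not state how reads shared by such copies were counted, so the split between KLRC2 and KLRC3 is uncertain.

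Of the 5 transporters and channels, SLC38A4, a carrier of neutral amino acids, had the lowest ratios. SLC38A4 was at 3.81, 3.24 and 4.08 CPM with scramble siRNA and 0.808, 1.36 and 1.24 CPM with siLonp1 in Ctrl and at 3.42, 3.80 and 2.64 CPM with scramble siRNA and 0.444, 0.604 and 0.612 CPM with siLonp1 in HS + REC. Its level is close to the minimum of 3 CPM, and the siLonp1 libraries in HS + REC were below 1 CPM. As a mean over both arms SLC38A4 was lower in HS + REC (log2 fold change -0.53, SE 0.14, adjusted p = 0.00249). By arm this was -0.09 (SE 0.15) with scramble siRNA and -0.96 (SE 0.24) with siLonp1, and the scramble libraries of Ctrl and HS + REC overlapped. ABCB1, the drug efflux pump P-glycoprotein, was at 11.2, 9.89 and 11.5 CPM with scramble siRNA and 4.70, 4.24 and 4.45 CPM with siLonp1 in Ctrl. In HS ABCB1 was at 12.9, 10.9 and 10.4 CPM with scramble siRNA and 4.73, 4.67 and 5.79 CPM with siLonp1, and in HS + REC at 17.6, 15.4 and 14.4 CPM with scramble siRNA and 7.24, 7.90 and 8.34 CPM with siLonp1. All 6 HS + REC libraries were above the Ctrl libraries of their arm, and ABCB1 was higher in HS + REC (log2 fold change 0.76, SE 0.07, adjusted p = 5.3e-09) whereas in HS it was not called (adjusted p = 0.0725). SLC39A8, an importer of zinc and manganese, SLC4A8, a bicarbonate exchanger, and TMC5, of the transmembrane channel-like family, had mean ratios of 0.452, 0.438 and 0.467. In HS + REC SLC4A8 was higher (log2 fold change 0.29) and TMC5 lower (log2 fold change -0.36), with adjusted p of 0.0015 and 7.18e-05. SLC4A8 overlaps GALNT6 on the opposite strand, and the strand setting of the counting is not stated, so its counts are uncertain.

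The 11 scaffold, vesicle and signalling genes held the member with the lowest mean ratio, PPFIBP2 (0.173). PPFIBP2, a liprin, was at 7.25, 7.51 and 8.98 CPM with scramble siRNA and 1.11, 1.41 and 1.98 CPM with siLonp1 in Ctrl. PPFIBP2 was at 10.5, 8.83 and 9.31 CPM with scramble siRNA and 1.61, 1.35 and 1.93 CPM with siLonp1 in HS, and in HS + REC at 8.02, 6.05 and 8.02 CPM with scramble siRNA and 1.07, 1.14 and 1.30 CPM with siLonp1. Each scramble library of PPFIBP2 was more than 3-fold above each siLonp1 library of its condition, and no heat call was made in HS or HS + REC. CPLX2, a complexin that binds the SNARE complex of vesicle fusion, was at 74.2, 73.1 and 73.9 CPM with scramble siRNA and 16.5, 18.7 and 16.8 CPM with siLonp1 in Ctrl. In HS CPLX2 was at 58.4, 55.4 and 48.1 CPM with scramble siRNA and 11, 13.9 and 13.8 CPM with siLonp1, and in HS + REC at 47.0, 43.0 and 47.3 CPM with scramble siRNA and 9.86, 8.41 and 11.5 CPM with siLonp1. CPLX2 thus fell with heat in both arms while its ratio stayed at 0.235, 0.239 and 0.217, and the heat effects were called in HS (log2 fold change -0.40, SE 0.07, adjusted p = 1.72e-05) and HS + REC (log2 fold change -0.66, SE 0.07, adjusted p = 7.58e-09). Its relative CPLX1 was also called lower with siLonp1, at -0.98, -1.10 and -0.53 on the log2 scale in Ctrl, HS and HS + REC.

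SHCBP1, a binding partner of the adaptor SHC, was among the most highly counted members, at 56.9, 56.3 and 57.8 CPM with scramble siRNA and 26.7, 27.3 and 27.7 CPM with siLonp1 in Ctrl. The HS libraries of SHCBP1 were at 48.1, 46.7 and 45.8 CPM with scramble siRNA and 20.3, 18.1 and 17.9 CPM with siLonp1, and those of HS + REC at 47.7, 46.1 and 42.6 CPM with scramble siRNA and 17.6, 21.4 and 22.0 CPM with siLonp1. Both arms were lower after heat with no overlap, with log2 fold changes of -0.37 in HS (adjusted p = 1.02e-06) and -0.29 in HS + REC (adjusted p = 1.89e-05). RHOBTB1, an atypical GTPase, rose in HS (log2 fold change 0.18, SE 0.06, adjusted p = 0.0149; adjusted p = 0.0630 without HS siLonp1 replicate 3) and was lower in HS + REC (log2 fold change -0.23, SE 0.06, adjusted p = 0.00224). ARHGEF40, a guanine nucleotide exchange factor, rose in HS by 0.41 (adjusted p = 0.000304) and was not called in HS + REC. Its exons overlap ZNF219 on the opposite strand, so its counts are uncertain. SYTL3, an effector of Rab27, GAP43, a protein of axonal growth cones, FAM81A and ASB9, a substrate receptor of ubiquitin ligases, were called in neither heat comparison, with mean ratios of 0.365, 0.423, 0.395 and 0.364. The exons of FAM81A overlap MYO1E on the opposite strand, so the counts of FAM81A are uncertain. In Ctrl scramble MYO1E had a mean of 117 CPM, against 10.3 CPM for FAM81A. AP5S1, a subunit of the AP-5 adaptor, was lower in HS + REC (log2 fold change -0.22, adjusted p = 0.00236).

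**Figure D3:**
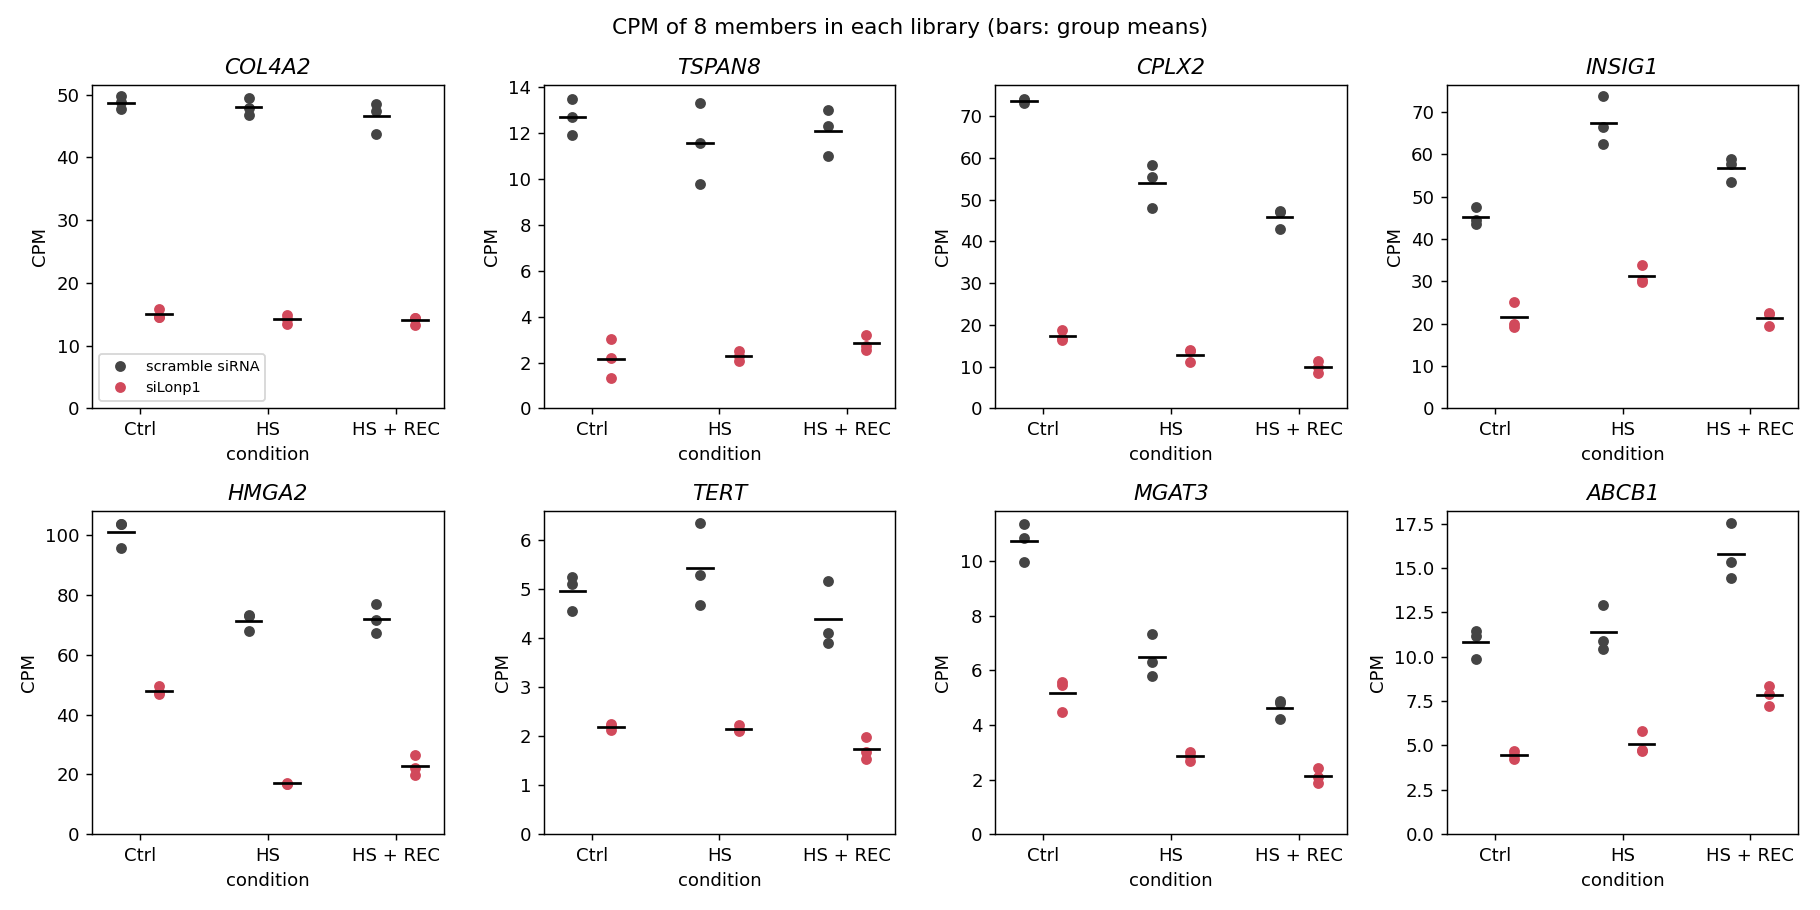
CPM of 8 members in every library, by condition, with scramble siRNA (grey) and siLonp1 (red); bars are the means of 3 libraries. COL4A2 was called in neither heat comparison, CPLX2, HMGA2 and MGAT3 fall, and ABCB1 is higher in HS + REC.

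Chromatin, telomere and transcription proteins made up 5 members. HMGA2, an architectural protein that bends DNA at AT-rich sites, was the member with the most counts, at 104, 95.7 and 104 CPM with scramble siRNA and 46.9, 49.5 and 47.6 CPM with siLonp1 in Ctrl. HMGA2 was at 72.8, 73.3 and 68.0 CPM with scramble siRNA and 16.9, 16.7 and 17.3 CPM with siLonp1 in HS, and in HS + REC at 76.9, 71.7 and 67.1 CPM with scramble siRNA and 19.7, 22.2 and 26.4 CPM with siLonp1. The HS and HS + REC libraries were below the Ctrl libraries in both arms, and the decrease was called over both arms in HS (log2 fold change -0.96, SE 0.05, adjusted p = 2.7e-13) and in HS + REC (log2 fold change -0.70, SE 0.05, adjusted p = 4.24e-11). By arm, the log2 fold change of HMGA2 in HS was -0.47 (SE 0.07) with scramble siRNA and -1.45 (SE 0.08) with siLonp1, and in HS + REC it was -0.41 and -1.0. The difference between the arms is the same quantity as the difference in ratio between conditions and was not tested. Its relative HMGA1 was higher with siLonp1 in Ctrl (log2 fold change 0.27, adjusted p = 0.00408) and in HS + REC (0.19, adjusted p = 0.0349). In HS HMGA1 was not called (0.15, adjusted p = 0.0821). IGF2BP1 and IGF2BP3, RNA-binding proteins of the family that binds HMGA2 mRNA, were called lower in each condition, IGF2BP1 at -0.55, -0.70 and -0.87 and IGF2BP3 at -0.30, -0.62 and -0.87 on the log2 scale, while IGF2BP2 was not called in any condition. Relatives and partners of members, here and elsewhere, were chosen after the values of the members were seen.

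TERT, the catalytic subunit of telomerase, was at 4.55, 5.24 and 5.10 CPM with scramble siRNA and 2.12, 2.25 and 2.21 CPM with siLonp1 in Ctrl. In HS TERT was at 5.29, 6.36 and 4.67 CPM with scramble siRNA and 2.23, 2.12 and 2.13 CPM with siLonp1, and in HS + REC at 3.91, 4.11 and 5.16 CPM with scramble siRNA and 1.53, 1.98 and 1.69 CPM with siLonp1. The siLonp1 libraries of TERT lay between 1.53 and 2.25 CPM. TERT was called neither in HS nor in HS + REC against Ctrl, and it was lower in HS + REC than in HS (log2 fold change -0.27, SE 0.10, adjusted p = 0.0303). TET1, which oxidises methylated cytosine in DNA, was at 19.5, 19.97 and 21.4 CPM with scramble siRNA and 9.77, 9.49 and 9.48 CPM with siLonp1 in Ctrl. The HS libraries of TET1 were at 31.6, 29.7 and 28.8 CPM with scramble siRNA and 9.72, 11.8 and 12 CPM with siLonp1, and those of HS + REC at 18.5, 19.3 and 15.1 CPM with scramble siRNA and 5.22, 6.60 and 6.39 CPM with siLonp1. TET1 was therefore higher in HS (log2 fold change 0.43, SE 0.07, adjusted p = 9.11e-06), with an overlap between HS and Ctrl in the siLonp1 arm, and as a mean over both arms lower in HS + REC than in Ctrl (log2 fold change -0.35, SE 0.07, adjusted p = 0.000135). By arm the change of TET1 in HS + REC was -0.12 (SE 0.09) with scramble siRNA and -0.58 (SE 0.11) with siLonp1. Between HS and HS + REC its log2 fold change was -0.78 (adjusted p = 2.04e-09). Its relative TET2 was lower with siLonp1 in Ctrl, HS and HS + REC (-0.33, -0.60 and -0.40 on the log2 scale, adjusted p = 0.016, 7.35e-05 and 0.00392), whereas TET3 was not called in any. T (brachyury, current symbol TBXT), a T-box factor, had ratios of 0.429, 0.413 and 0.429 and was higher in HS (log2 fold change 0.50, SE 0.08, adjusted p = 8.81e-06) and in HS + REC (log2 fold change 0.47, SE 0.08, adjusted p = 1.29e-05). ZNF704, a zinc finger protein, was lower in HS (log2 fold change -0.34, adjusted p = 0.000457) and in HS + REC (log2 fold change -0.64, adjusted p = 1.22e-07).

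The 6 enzymes and organelle proteins had mean ratios from 0.418 to 0.473. INSIG1, the anchor that holds the SREBP escort protein in the endoplasmic reticulum, was at 44.6, 43.6 and 47.5 CPM with scramble siRNA and 19.9, 19.3 and 25.2 CPM with siLonp1 in Ctrl. INSIG1 was at 66.3, 62.4 and 73.6 CPM with scramble siRNA and 30.3, 29.9 and 34 CPM with siLonp1 in HS, and in HS + REC at 53.5, 57.7 and 58.8 CPM with scramble siRNA and 22.4, 22.2 and 19.6 CPM with siLonp1. INSIG1 was raised in HS in both arms (log2 fold change 0.60, SE 0.06, adjusted p = 2.33e-08) and as a mean over both arms less so in HS + REC (log2 fold change 0.24, SE 0.06, adjusted p = 0.00193). By arm the change of INSIG1 in HS + REC was 0.41 (SE 0.09) with scramble siRNA and 0.08 (SE 0.09) with siLonp1, where the libraries overlapped those of Ctrl. Against scramble siRNA in the same condition, the relative INSIG2 was not called in Ctrl (log2 fold change 0.12, adjusted p = 0.279) and was higher with siLonp1 in HS (0.38, adjusted p = 0.00134) and in HS + REC (0.23, adjusted p = 0.0289). MGAT3, which adds the bisecting sugar to N-glycans, was at 10.9, 9.97 and 11.4 CPM with scramble siRNA and 5.58, 4.48 and 5.46 CPM with siLonp1 in Ctrl. In HS MGAT3 was at 6.32, 7.31 and 5.78 CPM with scramble siRNA and 2.68, 2.86 and 3.01 CPM with siLonp1, and in HS + REC at 4.79, 4.21 and 4.89 CPM with scramble siRNA and 2.11, 2.44 and 1.88 CPM with siLonp1. MGAT3 stepped down from Ctrl to HS to HS + REC with no overlap in either arm (log2 fold change -0.75, SE 0.08, adjusted p = 3.52e-08 in HS; log2 fold change -1.16, SE 0.08, adjusted p = 2.53e-11 in HS + REC).

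Both MTG1, a GTPase of mitochondrial ribosome assembly, and MRM1, a methyltransferase of mitochondrial ribosomal RNA, act in mitochondria, as does LONP1. MTG1 was at 28.1, 33.4 and 32.2 CPM with scramble siRNA and 15.3, 14 and 14.6 CPM with siLonp1 in Ctrl and MRM1 at 20.4, 19.6 and 21.0 CPM with scramble siRNA and 9.44, 9.06 and 9.32 CPM with siLonp1. The siLonp1 libraries of both were well separated from the scramble libraries. MTG2, a relative of MTG1, had log2 fold changes of -0.07, -0.30 and -0.29 with siLonp1. MRM1 was lower in HS + REC (log2 fold change -0.25, adjusted p = 0.00087), and so was MTG1 (log2 fold change -0.15, SE 0.06, adjusted p = 0.0245), a call that was lost without Ctrl scramble replicate 2 or 3, Ctrl siLonp1 replicate 1, HS + REC scramble replicate 1 or HS + REC siLonp1 replicate 2 or 3 (adjusted p up to 0.0768). LMLN, a metalloprotease of the leishmanolysin type, was called higher in HS + REC (log2 fold change 0.18, SE 0.08, adjusted p = 0.0401), and this was lost with scaling by library size only (adjusted p = 0.262). It was also lost without Ctrl scramble replicate 2 or 3, Ctrl siLonp1 replicate 1, HS + REC scramble replicate 1 or 2 or HS + REC siLonp1 replicate 2 or 3 (adjusted p up to 0.141). AKR1C4, an aldo-keto reductase of steroid metabolism, was at 5.47, 5.09 and 5.30 CPM with scramble siRNA and 2.63, 2.03 and 3.06 CPM with siLonp1 in Ctrl. Its neighbour and close copy AKR1C3, at a mean of 99.3 ± 2.60 CPM (SD, n = 3) in Ctrl scramble, was also called lower, with log2 fold changes of -0.72, -0.40 and -0.60, so the counts of AKR1C4 are uncertain.

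Non-coding and little characterised genes made up the other 10 members. GTF2IP20, a pseudogene copy of GTF2I, was at 5.62, 6.95 and 6.47 CPM with scramble siRNA and 2.10, 3.07 and 2.09 CPM with siLonp1 in Ctrl. The HS libraries of GTF2IP20 were at 12.3, 12.8 and 10.7 CPM with scramble siRNA and 4.76, 4.64 and 5.60 CPM with siLonp1, and those of HS + REC at 13.3, 13.4 and 12.4 CPM with scramble siRNA and 5.37, 5.92 and 6.09 CPM with siLonp1. It was the member with the largest rise with heat (log2 fold change 1.02, SE 0.09, adjusted p = 7.67e-10 in HS; log2 fold change 1.23, SE 0.09, adjusted p = 1.37e-11 in HS + REC), but reads may be split with GTF2I, whose mean was 88.0 CPM in Ctrl scramble and 80.5 CPM in Ctrl siLonp1, so its values are uncertain. With siLonp1 GTF2I had log2 fold changes of -0.06, -0.31 and -0.14 in Ctrl, HS and HS + REC. GTF2I was called lower in HS only (adjusted p = 0.000419). In the RefSeq annotation ZNF503-AS1 lies inside the span of ZNF503, and ZNF503-AS2 overlaps the start of that gene on the opposite strand, so that the counts of both are uncertain too. Their mean ratios were 0.409 and 0.425, while ZNF503 changed with siLonp1 by -0.16 in Ctrl (adjusted p = 0.305, not called), by -0.56 in HS (adjusted p = 0.000451) and by -0.00 in HS + REC (adjusted p = 0.984, not called). ZNF503-AS2 rose with heat by 0.47 in HS (adjusted p = 0.000463) and 0.65 in HS + REC (adjusted p = 6.85e-06), and ZNF503-AS1 was not called.

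LOC100190940, a transcript with no entry in the RefSeq table, was at 7.74, 8.20 and 8.37 CPM with scramble siRNA and 2.32, 2.60 and 2.88 CPM with siLonp1 in Ctrl. LOC100190940 was at 6.92, 7.05 and 5.65 CPM with scramble siRNA and 2.50, 1.91 and 2.91 CPM with siLonp1 in HS, and in HS + REC at 3.12, 2.79 and 3.15 CPM with scramble siRNA and 0.933, 1.14 and 1.32 CPM with siLonp1. The drop came between HS and HS + REC, where no libraries overlapped in either arm (log2 fold change -1.07, SE 0.10, adjusted p = 1.17e-08), while HS against Ctrl was not called (adjusted p = 0.167). LINC00999 rose in HS (log2 fold change 0.47, SE 0.11, adjusted p = 0.00068) and further in HS + REC (log2 fold change 0.89, SE 0.10, adjusted p = 5.96e-08). LINC01124 was lower in both (log2 fold changes -0.35 and -0.44), as was SMIM10 (-0.40 and -0.33), a small membrane protein. C14orf105 (current symbol CCDC198) had a mean ratio of 0.277, the lowest of this group, and rose in HS + REC by 0.38 (adjusted p = 0.00281), with an overlap between HS + REC and Ctrl libraries in each arm. CCHE1 and LINC01061 were called in neither heat comparison, and CCHE1, for which no exon overlap was available, lies within PHYHIPL, which was itself called lower with siLonp1 in all 3 conditions (-0.61, -0.65 and -0.79 on the log2 scale).

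Counted over the 53 members, all of which passed the filter on low counts, the heat effects went in both directions. In HS against Ctrl, averaged over both arms, 11 members were called lower (20.8%; 26.8% of all genes tested) and 13 higher (24.5%; 24.7% of all genes), with an FDR limit of 0.05 and no limit on the fold change. In HS + REC against Ctrl, 18 were lower (34%; 30.3% of all genes) and 15 higher (28.3%; 29.1% of all genes). In HS + REC against HS, 14 were lower (26.4%; 20.1% of all genes) and 10 higher (18.9%; 21.7% of all genes). The counts depend on the scaling. By library size only, 11 members were lower (32.8% of all genes) and 11 higher (21.0% of all genes) in HS, 21 (41.3%) and 14 (21.6%) in HS + REC, and 17 (26.3%) and 7 (16.7%) in HS + REC against HS. With the main scaling, by edgeR's TMM factors (trimmed mean of M values), the median log2 fold changes of the members were 0.06, -0.01 and -0.00 against -0.01, -0.00 and 0.00 over all genes. The shares called with this scaling were near those of all genes tested and are no result about the members. HS and HS + REC share the Ctrl libraries. Read side by side, 9 members were called higher in both (17.7% of all genes tested), 8 lower in both (19.2% of all genes) and 16 in neither (29.2% of all genes). NRCAM, RHOBTB1 and TET1 were higher in HS and lower in HS + REC, as were 1.60% of all genes.

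**Figure D4:**
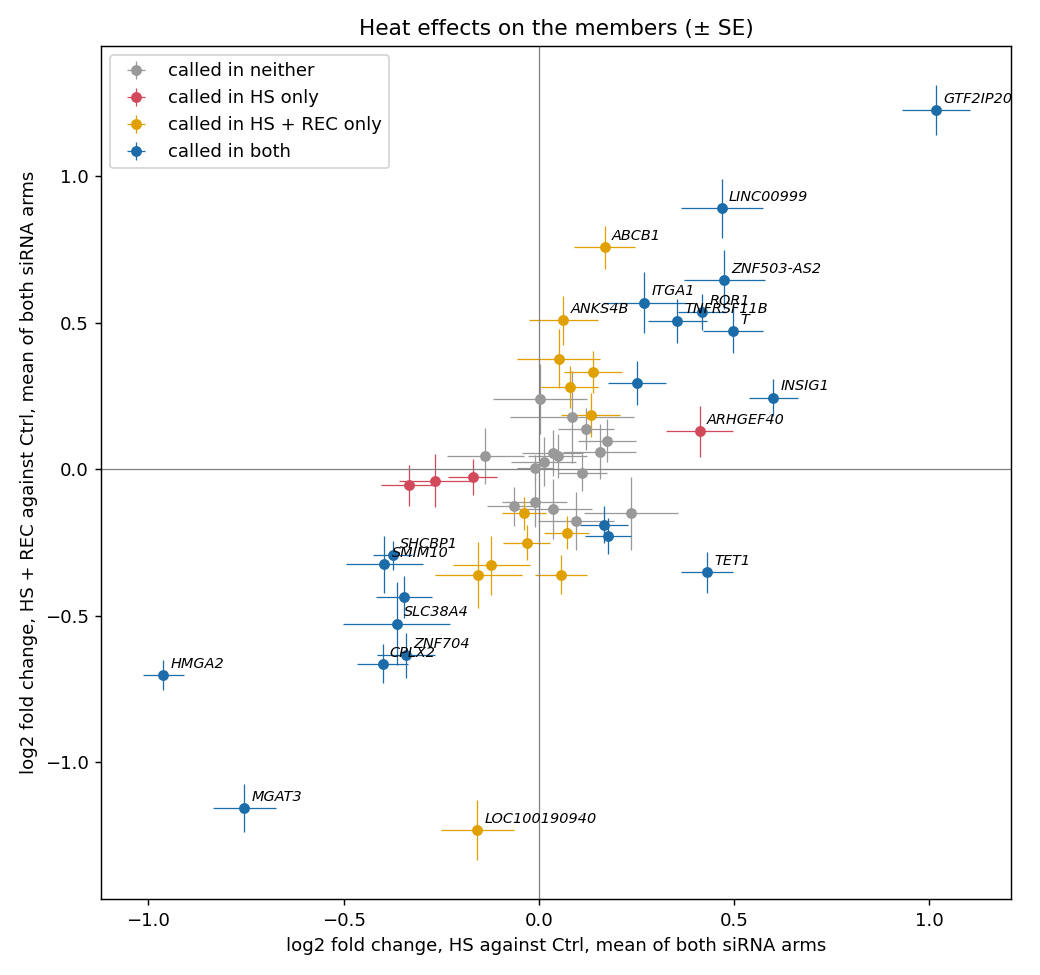
Log2 fold change by HS (horizontal) and by HS + REC (vertical) against Ctrl, each the mean of both siRNA arms, for the 53 members; bars are standard errors and colour gives the calls. Both comparisons use the same Ctrl libraries; GTF2IP20 is at the upper right, HMGA2 and MGAT3 at the lower left, and LOC100190940 is lowered in HS + REC.

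Levels were compared between members per exon length, as TPM over the genes tested that have a GENCODE length (98.0% of them, and 49 of the 53 members). The median of the members was 10.7 TPM in the scramble libraries, against 23.7 TPM over all these genes. INSIG1 (66.6 TPM), MRM1 (45.6 TPM) and KLRC2 (39.5 TPM) were among the high members by this measure, and ITGA1 (1.02 TPM) and DSC2 (2.22 TPM) low. The value of GTF2IP20 (125 TPM) rests on an annotated length of 360 bases and is uncertain. Of the 52 members matched in RefSeq, 45 were protein coding (86.5%, against 94.1% of the genes tested) and 6 were long non-coding RNAs. The members lay on 22 chromosomes, with 8 on chromosome 10 and 7 on chromosome 12. No member was the nearest tested gene of another. With the main scaling, the 102 nearest tested neighbours were called lower with siLonp1 in 26.5% in Ctrl (22.9% of all genes tested), in 35.3% in HS (26.7% of all genes) and in 35.3% in HS + REC (27.3% of all genes). They were called higher in 16.7%, 23.5% and 23.5%, against 26.3%, 28.1% and 26.8% of all genes. Single neighbours went in either direction. COL4A2 lies near RAB20, which rose by 0.53, 0.56 and 0.68, and SYTL3 next to EZR, which rose by 0.72, 0.71 and 0.67. TMC5 lies next to GDE1, which had log2 fold changes of -0.53, -0.54 and -0.52, and FAM81A near GCNT3, a glycosyltransferase of mucins, which had -2.73, -2.37 and -2.09 from a Ctrl scramble mean of 1.38 CPM.

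Gene lists were used to see which relatives of the members by function moved with siLonp1. The 7 lists hold 386 genes, of which 187 were tested and 10 are members. With siLonp1, 55 list genes were called lower and 58 higher in Ctrl, 58 and 63 in HS, and 55 and 67 in HS + REC, members included. Over all genes tested, 22.9% were lower and 26.3% higher in Ctrl, 26.7% and 28.1% in HS, and 27.3% and 26.8% in HS + REC. These shares depend on the scaling: by library size only, as in the CPM that chose the members, 3908 of the 12832 genes were lower and 2519 higher in Ctrl, 4751 and 2562 in HS, and 4445 and 2655 in HS + REC. Of the list genes 62 and 47, 66 and 49, and 67 and 56 were lower and higher by this scaling. With the main scaling, 43 list genes were lower in all 3 conditions (16.0% of all genes tested) and 48 higher (18.1% of all genes). The members are lower by selection, and of the non-members 45, 48 and 45 were lower in Ctrl, HS and HS + REC, near the share of all genes tested.

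The list of intestinal and hepatic transcription factors holds no member. Of its 22 tested genes, 10 were lower and 3 higher in Ctrl, 12 and 4 in HS, and 11 and 5 in HS + REC, with median log2 fold changes of -0.28, -0.40 and -0.23, against 0.01, 0.00 and -0.00 over all genes tested. Those lower in all 3 conditions included CDX2, PDX1, EHF, HNF4A, VDR, ELF3 and FOXA2, and those higher included KLF5 and ISX. CDX2, the homeobox factor of intestinal identity, had means of 31.1 ± 0.894 CPM (SD, n = 3) in Ctrl scramble and 15.8 ± 1.20 CPM in Ctrl siLonp1. Its log2 fold changes were -0.90 (SE 0.09, adjusted p = 2.11e-08) in Ctrl, then -1.38 and -1.07 in the heated groups HS and HS + REC. HNF4A, a nuclear receptor of gut and liver, went from 150.0 ± 10.0 to 106 ± 4.42 CPM in Ctrl, and its log2 fold changes were -0.42, -0.55 and -0.58. Whether these factors act on the members was not tested.

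Of 23 brush border and enterocyte genes tested, of which TSPAN8 and ANKS4B are members, 9 were lower and 6 higher in Ctrl, 8 and 7 in HS, and 9 and 7 in HS + REC, with medians of -0.04, 0.06 and -0.01. Of 21 plasma protein and lipoprotein genes, 5 and 4, 6 and 6, and 4 and 5 were lower and higher, with medians of 0.02, 0.08 and -0.00. FABP1, a fatty acid binding protein of enterocytes and hepatocytes, was among the lowest non-members, with log2 fold changes of -1.55, -2.14 and -1.62, at only 1.33 ± 0.136 CPM in Ctrl scramble. At the other end APOE, an apolipoprotein, rose by 1.71, 1.46 and 1.85 (adjusted p = 1.35e-07 in Ctrl), from 2.14 ± 0.773 to 6.64 ± 0.346 CPM in Ctrl. Of 11 goblet and other secretory cell genes, 3 and 3, 1 and 5, and 2 and 5 were lower and higher, with medians of -0.14, 0.01 and 0.17. In the list of 22 drug, bile acid and steroid metabolism genes, 10 were lower and 3 higher in Ctrl, 10 and 3 in HS, and 11 and 2 in HS + REC, with medians of -0.41, -0.22 and -0.31. CYP1A1 and CYP1B1, oxidases of aromatic hydrocarbons, had siLonp1 log2 fold changes of -2.12 and -2.28 in Ctrl, -2.17 and -1.21 in HS, and -2.51 and -1.44 in HS + REC. Both were below 3 CPM in Ctrl scramble, at 2.05 and 1.78 CPM.

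The lists of adhesion and of basement membrane genes moved in both directions around the members. Of 39 cell adhesion and junction genes tested, which include DSC2, ITGA1 and NRCAM, 11 were lower and 18 higher in Ctrl, 11 and 21 in HS, and 9 and 19 in HS + REC. CDH16, a cadherin of kidney epithelium, was the lowest non-member, with log2 fold changes of -2.79, -2.99 and -2.77 from 1.55 ± 0.0455 CPM in Ctrl scramble, a level under the minimum of the selection. The median log2 fold changes of the adhesion list were 0.17, 0.21 and 0.12. Of 49 basement membrane and guidance genes, which include COL4A2 and PLXNA2, 7 were lower and 21 higher in Ctrl, 10 and 17 in HS, and 9 and 24 in HS + REC, with medians of 0.14, 0.00 and 0.18. NID1, which links the laminin and collagen networks of basement membranes, went from 25.6 ± 0.704 CPM with scramble siRNA to 98.1 ± 3.25 CPM with siLonp1 in Ctrl. It rose by 2.01 (SE 0.08, adjusted p = 1.28e-14), 2.01 and 1.74 on the log2 scale in the 3 conditions, opposite in direction to COL4A2.

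**Figure D5:**
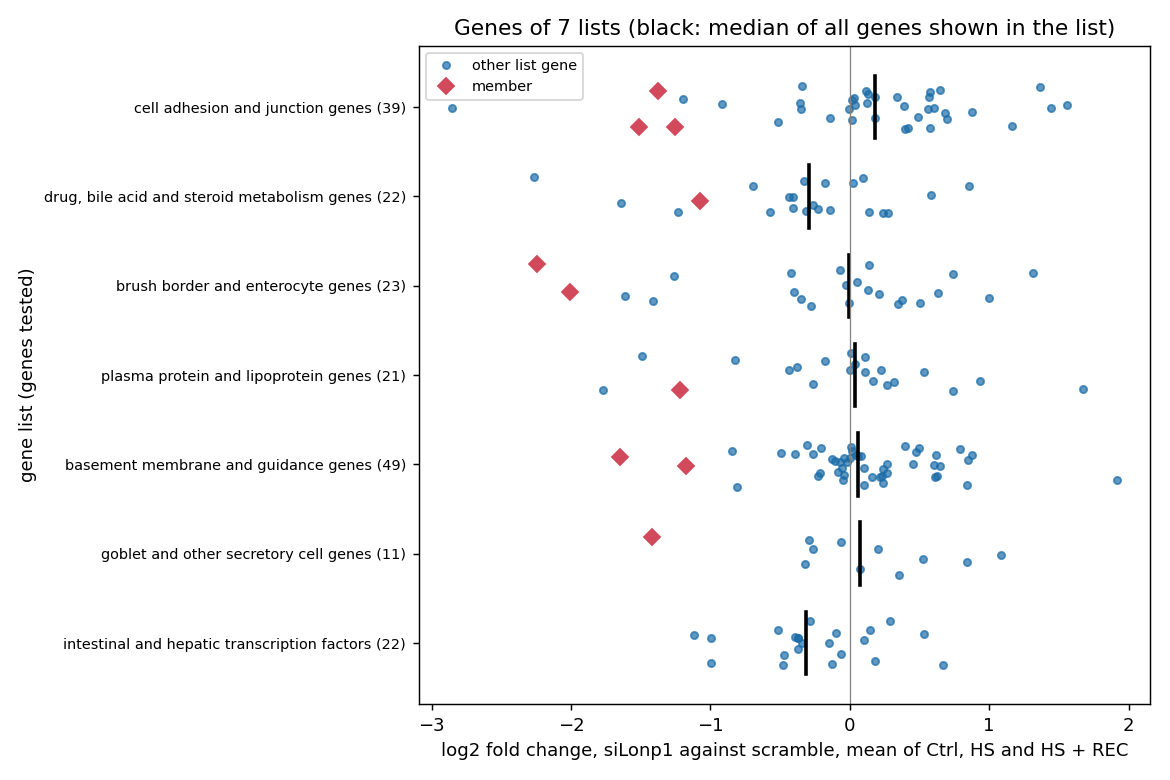
Log2 fold change of siLonp1 against scramble siRNA, mean of the 3 conditions (horizontal), for the 187 tested genes of the 7 lists (rows); red diamonds are the 10 members, and the vertical bars are the medians of all tested genes of a list, members included. The members are at the left because they were chosen so, and CDH16 and NID1 are the extremes among the other genes.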

How the data were processed

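RNAseq counts per gene symbol, as deposited by the authors, were used for 18 libraries of SW620 cells. According to the submitters' processing notes, reads were aligned to hg38 with STAR 2.7.3a and counted with featureCounts, and R 3.6.3 and edgeR were used. The strand setting of the counting is not given in the sources used here. Of 26485 symbols, 12832 had more than 1 CPM in at least 3 libraries and were tested, and 99.9% or more of every library's counts fell in these genes.

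Counts were fitted with edgeR 4.0.16 (R 4.3.3, limma 3.58.1): TMM factors (0.934 to 1.06), a model with a mean per group over all 18 libraries, quasi-likelihood tests, Benjamini-Hochberg adjustment over all genes tested, and calls at an FDR of at most 0.05 with any fold change. The common biological coefficient of variation was 0.0658, and the prior count 0.125. Heat effects were means over both siRNA arms. The fit was tested on simulated data: of 200 changed genes 197 were called, with 12 false calls among 12832 genes. CPM used column sums. Replicates of a group differed by more than sampling noise (chi-square per degree of freedom 3.48 to 25.8), so all 18 libraries were counted.

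The members and the gene lists were chosen with earlier results of these data known. The 10 members with the highest CPM in scramble siRNA, the 10 with the lowest mean ratio, the 5 with the lowest and the 5 with the highest called heat effects, those in a gene list and those next to the limits were named by rule. So were, from the lists, the 4 lowest and 2 highest non-members called in all 3 conditions, and HNF4A and CDX2. Items withheld for evaluation are not reported here. Other genes named, the roles, the relatives and the printed promoter were chosen after their values were seen.

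Alternatives were DESeq2 1.42.0, other scalings, filters, thresholds and limits of the selection, a block for the replicate number, only the groups compared, and leaving out each library. Positions, biotypes and promoters are from RefSeq GRCh38.p14, and exon lengths from GENCODE 44, read with python 3.11.15 and pandas 2.3.3. Plots were drawn with matplotlib 3.10.9.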

Additional observations from a re-analysis of the deposited data

How the results depend on the processing

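The number of members depends on the limits: it was 102 with a minimum of 1 CPM and 29 with 10 CPM, and 17 with a ratio of at most 0.4 and 168 with at most 0.6. With TMM-scaled CPM, the scaling of the tests, it was 41. The members lost with this scaling were ABCB1, AKR1C4, AP5S1, INSIG1, LMLN, MGAT3, MTG1, PLXNA2, RHOBTB1, SHCBP1, SVEP1 and TMC5. The number was 44 with RLE-scaled CPM and 49 with group medians, of which 45 were among the 53. Without each library in turn it ran from 49 to 57, and 42 members were kept in all of these.

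In HS, 8 to 11 members were called lower and 10 to 18 higher without a library. In HS + REC these were 17 to 19 and 14 to 16, and in HS + REC against HS 13 to 15 and 7 to 12. With a fold change above 2 (edgeR), 0 members were lower (0.631% of all genes tested) and 1 higher (3.05%) in HS, 2 (0.842%) and 1 (4.08%) in HS + REC, and 1 (0.686%) and 0 (1.34%) in HS + REC against HS. At an FDR of 0.01, 8 were lower (21.1% of all genes) and 10 higher (19.9%) in HS, 16 (25%) and 14 (24%) in HS + REC, and 12 (15.1%) and 5 (16.4%) in HS + REC against HS. List genes past a fold change of 2 with siLonp1 were 20 lower (1.54% of all genes) and 8 higher (2.63%) in Ctrl, 24 (1.61%) and 10 (2.56%) in HS, and 20 (1.33%) and 11 (2.84%) in HS + REC, members included, which are lower by selection. Without a library, 51 to 58 were lower and 51 to 59 higher in Ctrl, 51 to 59 and 51 to 63 in HS, and 53 to 58 and 60 to 67 in HS + REC.

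Of 1254 values of single members under the alternatives, 1213 kept direction and call, 41 kept the direction and lost the call, and 0 reversed. These 41 belong to ENPP1, ITGA1, NRCAM, RHOBTB1, SLC38A4 and SVEP1 in HS and LMLN and MTG1 in HS + REC, and the cause was not tested.

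With the replicate number as a block, the rule gave 53 members, and 11 were lower and 13 higher in HS, 18 and 16 in HS + REC, and 14 and 10 in HS + REC against HS. Of 45 pairs of libraries with the same number, 10 had deviations correlated above 0.1 (-0.379 to 0.462), and 6 of 18 libraries correlated best with their own number, so the numbers do not pair the libraries. Members near 3 CPM, such as SLC38A4, have few counts and wide errors.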

Other observations

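Of the genes left out by name, DDC, which makes dopamine and serotonin from their precursors, had ratios of 0.0427, 0.0379 and 0.0436 in the Ctrl, HS and HS + REC conditions, lower than those of LONP1. CDH17, the cadherin of intestinal epithelium, had 0.109, 0.0876 and 0.110, and AGR2, a disulfide isomerase of secretory cells, 0.169, 0.131 and 0.199. TGFBR3, a co-receptor for TGF-beta, had 0.318, 0.530 and 0.215, and so missed the limit only in HS. These are descriptions of the values on which genes were selected.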
